A study of Mus musculus with 21 samples.

Results

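The genes described here are 8 members of the Six-Eya-Dach network, Six2, Six4, Six5, Eya1, Eya2, Eya3, Eya4 and Dach1, taken by gene symbol from both deposited count tables, where they are 8 of 24594 genes. They were taken by name and not by a threshold on any value, but with earlier results of these data known. Mouse RNA was sequenced from pharyngeal arches 2 and 3 (PA2 and PA3), swellings of the embryonic head that build parts of the face, ear and neck, and from the pinna, or outer ear. In the genotype series, both arches came from wild-type (WT) and HIRE1del/del (HIRE1del) embryos at E10.5 (E, embryonic day). The latter lack HIRE1, a distal regulatory region proposed to act on the homeobox genes Hoxa2 and Hoxa3. Levels of Hoxa3 are not described here. The stage series consists of WT cranial neural crest cells, sorted by FACS for an RFP reporter (Wnt1::Cre with ROSA-RFP) out of E10.5 PA2, the E12.5 pinna and the E14.5 pinna. The Cre line is driven by the Wnt1 promoter, so the sort takes cells of crest origin as this driver marks them. HIRE1 was deleted by CRISPR/Cas9 on C57Bl/6J, and all mice were kept on a mixed C57Bl/6J and CD1 background. Each of the 7 groups had 3 libraries from embryos of both sexes.

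Six-family proteins are homeodomain transcription factors, and Eya proteins are phosphatases that bind them and lend them an activation domain. Dach proteins bind DNA and corepressors and act in the same complexes. The network is known from the eye, and in mammals from the ear, the kidney, the cranial placodes and muscle, where loss of Eya1 leads to malformed ears and kidneys. Hoxa2 gives the second arch its identity and is needed for the pinna, and Six2 is known as a gene that Hoxa2 holds down in this arch.

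The 12 libraries of the genotype series held 25.8 to 32.2 M counts and the 9 of the stage series 25.8 to 49.1 M, and the deepest stage libraries were those of E14.5. Levels are in CPM (counts in each 1 M counts of a library, after TMM scaling), and levels of different genes were compared only in RPKM, which divides CPM by the exon length in kb. Genes with an adjusted p under 0.05 were called changed, from edgeR's quasi-likelihood test with p-values adjusted by Benjamini-Hochberg over all genes tested in a table. Hoxa2, the gene that checks the genotype labels, was at 73.4 to 84.2 CPM in PA2 WT and 4.75 to 7.10 CPM in PA2 HIRE1del, and at 56.0 to 65.1 CPM in PA3 WT and 22.1 to 25.6 CPM in PA3 HIRE1del. The labels call every library cranial neural crest cells. In the sorted libraries the summed level of 5 crest mesenchyme markers (Prrx1, Twist1, Dlx2, Pdgfra and Tfap2a) was 1530 to 3904 CPM and that of 5 epithelial markers 7.09 to 23.4 CPM. In the arches of the genotype series, for which no sorting is stated, the crest sum was 589 to 1078 CPM, the epithelial sum 198 to 560 CPM and that of 4 erythroid markers 1311 to 21124 CPM, so these libraries also held RNA of other cells. In such bulk samples, fewer cells of a type and less RNA per cell cannot be told apart.

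Six2, Six4 and Six5 lie on 3 chromosomes, and their promoters are shown because Six4 and Six5 moved in opposite directions between the stages and Six2 is known to be held down by Hoxa2. Six2 lies at chr17:85684277-85688274 on the minus strand, Six4 at chr12:73099609-73113456 on the minus strand and Six5 at chr7:19094594-19098549 on the plus strand (GENCODE M21, GRCm38). Each sequence below is the stretch from 250 to 51 bases before the RefSeq start (GRCm38.p6), at chr17:85688305-85688504 for Six2, chr12:73113476-73113675 for the upstream of 2 Six4 starts and chr7:19094294-19094493 for Six5, printed 5′ to 3′ on the strand of the gene. No annotated exon overlapped these windows. Capitals mark the letters TGACAG, as bound by the Hox cofactor Meis, or their reverse complement.
Six2: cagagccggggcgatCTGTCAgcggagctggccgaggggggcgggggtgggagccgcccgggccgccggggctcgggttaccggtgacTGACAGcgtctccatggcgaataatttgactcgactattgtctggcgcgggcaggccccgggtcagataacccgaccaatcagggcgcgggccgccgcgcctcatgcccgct
Six4: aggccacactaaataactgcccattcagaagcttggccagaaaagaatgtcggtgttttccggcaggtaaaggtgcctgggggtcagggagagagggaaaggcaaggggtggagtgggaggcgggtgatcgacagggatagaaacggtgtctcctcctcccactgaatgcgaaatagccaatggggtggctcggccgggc
Six5: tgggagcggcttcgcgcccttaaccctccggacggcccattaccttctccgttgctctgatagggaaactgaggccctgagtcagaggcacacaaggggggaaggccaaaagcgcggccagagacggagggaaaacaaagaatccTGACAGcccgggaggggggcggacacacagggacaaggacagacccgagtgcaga
The Six2 window held TGACAG once on each strand and the Six5 window once, while 13.1% of all 32851 promoter windows of this length held it on either strand. The motif TGATNNAT, as bound by Hox with Pbx proteins, was in none of the 3 windows and in 6.44% of all, and TCAGGTT, of the kind that Six-family proteins bind, was in none of the 3 and in 2.85% of all. The window of the second Six4 start, at chr12:73113296-73113495, overlaps annotated exons and is not printed. It held TCAGGTT once, on the reverse strand, and neither of the other motifs. The Six2 window was 71.0% G and C with 24 CpG, that of Six4 57.5% with 8 and that of Six5 62.0% with 12, against medians of 51.5% and 4 over all windows. A match of letters is a description of the window and not a site.

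The first question was how the network changed in crest cells as PA2 gave way to the pinna. Six4 and Eya2 fell at each step, Eya1 and Eya4 fell between E12.5 and E14.5 but were not called before, Eya3 and Dach1 fell by smaller amounts at both steps, and Six5 rose. Of the 7 members that passed the filter of 1 CPM in 2 libraries, 1 was called higher and 4 lower at E12.5 against E10.5, where 68.8% of the 13438 genes tested were called, 35% as higher and 33.7% as lower. At E14.5 against E12.5, 0 were called higher and 6 lower, with 65.7% of all genes called (32.6% higher, 33.1% lower). At E14.5 against E10.5, 1 was higher and 6 were lower, with 82% of all genes called (42% higher, 40% lower). Both counts of 6 include Eya2, which passed the filter through the earlier stages alone. The CPM ranges of the groups were apart for 5, 6 and 7 of the 7 members in these comparisons, against 74.5%, 69.6% and 84% of all genes. The median log2 fold change of the 7 members from E10.5 to E14.5 was -1.12, and that of all genes tested was 0.02.

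**Figure D1:**
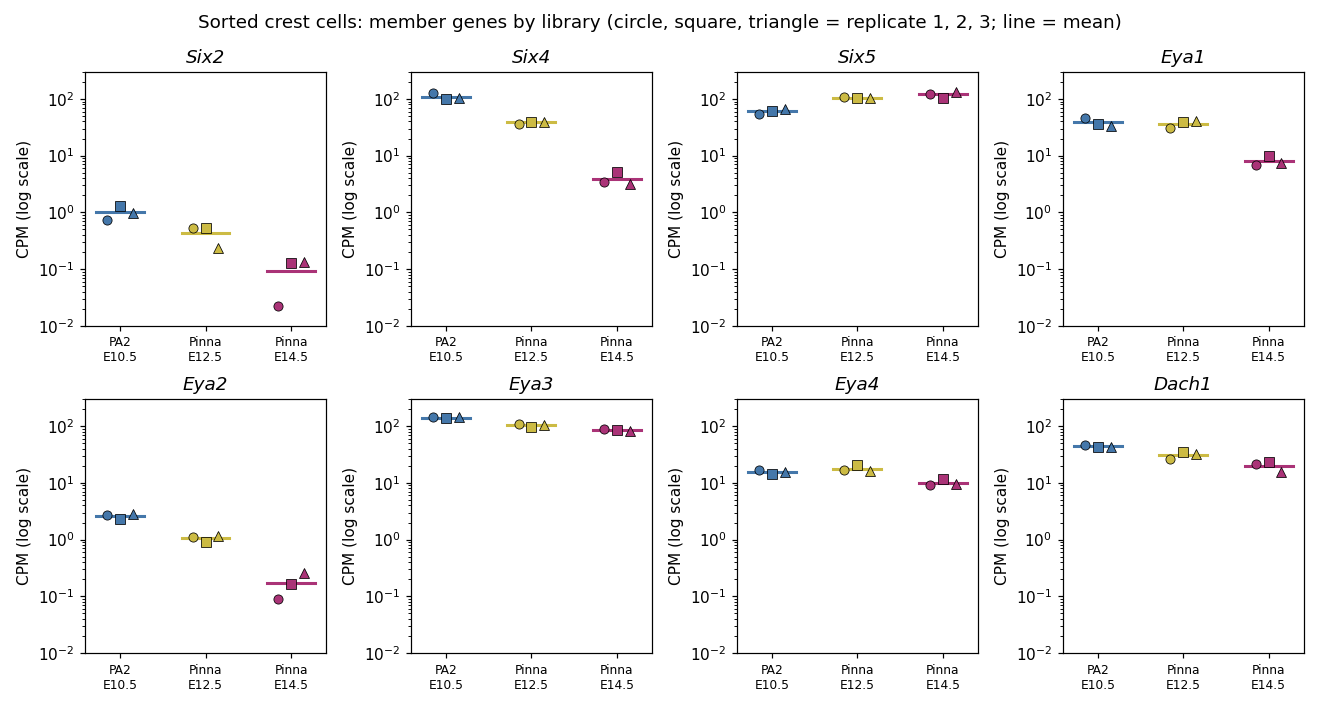
CPM (log axis) of each gene in the 9 sorted libraries, with 1 panel a gene, the 3 groups along the x axis, a symbol for each library and a line at the mean of the group. Six4 and Eya2 drop at each step, Six5 rises to 105 to 133 CPM at E14.5, and Eya3 stays above 80 CPM throughout.

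Six4, a Six-family factor of muscle, placodes and kidney, was at 125, 99.0 and 102 CPM in sorted PA2 at E10.5, at 36.4, 39.5 and 39.6 CPM in the pinna at E12.5 and at 3.44, 5.23 and 3.13 CPM at E14.5. The 3 groups did not overlap. Six4 fell by 1.5 on the log2 scale to E12.5 (SE 0.14, edgeR adjusted p 2.99e-06) and by a further 3.29 to E14.5 (SE 0.17, adjusted p 3.14e-08). The mean at E14.5 was 3.62% of that at E10.5. Six5, best known as a neighbour of the myotonic dystrophy gene Dmpk, went the other way. It was at 53.7, 61.6 and 66.5 CPM at E10.5, at 109, 102 and 106 CPM at E12.5 and at 123, 105 and 133 CPM at E14.5. Six5 was higher in every pinna library than in any PA2 library, and rose by 0.80 to E12.5 (SE 0.10, edgeR adjusted p 2e-05). The pinna stages overlapped, and the step from E12.5 to E14.5 was 0.19 (95% interval -0.01 to 0.40, adjusted p 0.0916). Without E14.5 replicate 2 that step was 0.28 and was called (edgeR adjusted p 0.0156).

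Six2, a factor of nephron progenitors and of arch mesenchyme, was close to the limit of detection in sorted cells and did not pass the filter. It had 22, 38 and 30 counts at E10.5 (0.736, 1.30 and 0.980 CPM), 14, 16 and 7 counts at E12.5 (0.520, 0.522 and 0.238 CPM) and 1, 6 and 6 counts at E14.5 (0.022, 0.126 and 0.131 CPM). The 3 groups did not overlap, and their order was that of Six4. In a fit with no filter on low counts, the log2 fold change was -1.24 from E10.5 to E12.5 (SE 0.48, edgeR adjusted p 0.0415) and -2.17 from E12.5 to E14.5 (SE 0.57, adjusted p 0.00522).

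The 4 Eya genes are spread over 4 chromosomes and, unlike the small Six-family genes, span long stretches of DNA. Eya1 lies at chr1:14168954-14310235 on the minus strand, Eya2 at chr2:165595032-165771727 on the plus strand, Eya3 at chr4:132638987-132724765 on the plus strand and Eya4 at chr10:23102963-23350786 on the minus strand. None of the exon bases of the 8 members was shared with another gene on either strand (0 bases each).

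Eya1, the gene mutated in branchio-oto-renal syndrome, was lower at E14.5 than at both earlier stages. It was at 46.8, 35.8 and 33.4 CPM in sorted PA2 at E10.5, at 30.2, 39.7 and 40.3 CPM at E12.5 and at 6.78, 9.94 and 7.36 CPM at E14.5. The first 2 stages overlapped, with a difference of -0.07 (95% interval -0.43 to 0.29, edgeR adjusted p 0.707), and all E14.5 libraries lay below them. Eya1 fell by 2.19 from E12.5 to E14.5 (SE 0.18, edgeR adjusted p 1.09e-06). Eya2, a paralog found in placodes and muscle, was lower throughout, at 2.74, 2.30 and 2.88 CPM at E10.5, at 1.11, 0.914 and 1.16 CPM at E12.5 and at 0.0881, 0.168 and 0.263 CPM at E14.5. The last values stand for 4, 8 and 12 counts, and the 3 groups did not overlap. Eya2 fell by 1.31 to E12.5 (SE 0.28, edgeR adjusted p 0.00154) and by 2.59 to E14.5 (SE 0.35, adjusted p 5.93e-05). Eya2 was below 1 CPM in every E14.5 library and passed the filter through the earlier stages alone. The filter thus favoured a fall to E14.5, and its calls there are given as a description only.

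Eya3, the most widely expressed Eya gene, was at 142, 138 and 143 CPM at E10.5, at 110, 98.2 and 106 CPM at E12.5 and at 87.5, 87.0 and 82.6 CPM at E14.5. The libraries of a stage lay close together and the stages did not overlap, so that modest steps of -0.43 (SE 0.06, edgeR adjusted p 4.95e-05) and -0.29 (SE 0.06, adjusted p 0.00105) were called. Eya4, known for inherited hearing loss, was at 16.7, 14.2 and 15.8 CPM at E10.5, at 16.6, 20.7 and 16.4 CPM at E12.5 and at 9.16, 11.6 and 9.50 CPM at E14.5. Only the E14.5 libraries stood apart from both other groups. Eya4 fell by 0.82 from E12.5 to E14.5 (SE 0.13, edgeR adjusted p 0.000157), while the step before was 0.20 (95% interval -0.07 to 0.48, adjusted p 0.171).

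Dach1, the DNA-binding corepressor, lies at chr14:97786853-98169765 on the minus strand and spans 382.9 kb, the longest of the 8. It was at 46.4, 42.8 and 42.5 CPM at E10.5, at 26.2, 34.4 and 31.9 CPM at E12.5 and at 21.6, 23.6 and 15.3 CPM at E14.5. The groups did not overlap. Dach1 fell by 0.51 (SE 0.14, edgeR adjusted p 0.00843) and then by 0.61 (SE 0.15, adjusted p 0.00325).

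Per exon length, the make-up of both families shifted. Six5 made up 65.7% ± 4.92 of the summed RPKM of the 3 Six-family members in sorted PA2, 90.3% ± 0.623 in the E12.5 pinna and 99.0% ± 0.422 in the E14.5 pinna (SD, n = 3 each). The share of Six4 went from 32.8% ± 5.21 over 9.15% ± 0.633 to 0.923% ± 0.378 (SD, n = 3 each). The ratio of Six5 to Six4 in RPKM was 1.55 to 2.35 at E10.5, 9.30 to 10.8 at E12.5 and 72.7 to 153 at E14.5. These ranges did not overlap. An exact two-sided permutation test gave p = 0.1 for each step (adjusted 0.1 over the 3 comparisons made of this ratio). That is the smallest p that 3 against 3 libraries allow, so the test adds nothing to the ranges being apart. PA3 WT against PA2 WT, the remaining comparison, had mean ratios of 1.06 and 0.924 and also p = 0.1 by this permutation test. The summed RPKM of the 3 Six-family members was 30.6 ± 1.19, 38.8 ± 1.01 and 40.5 ± 4.51 at the 3 stages, and that of the 4 Eya members 33.1 ± 1.38, 26.2 ± 0.467 and 17.7 ± 0.694 (SD, n = 3 each). Eya3 led the Eya sum at every stage, with 75.5%, 70.7% and 85.5% of it, followed by Eya1 at E10.5 and E12.5 and by Eya4 at E14.5.

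**Figure D2:**
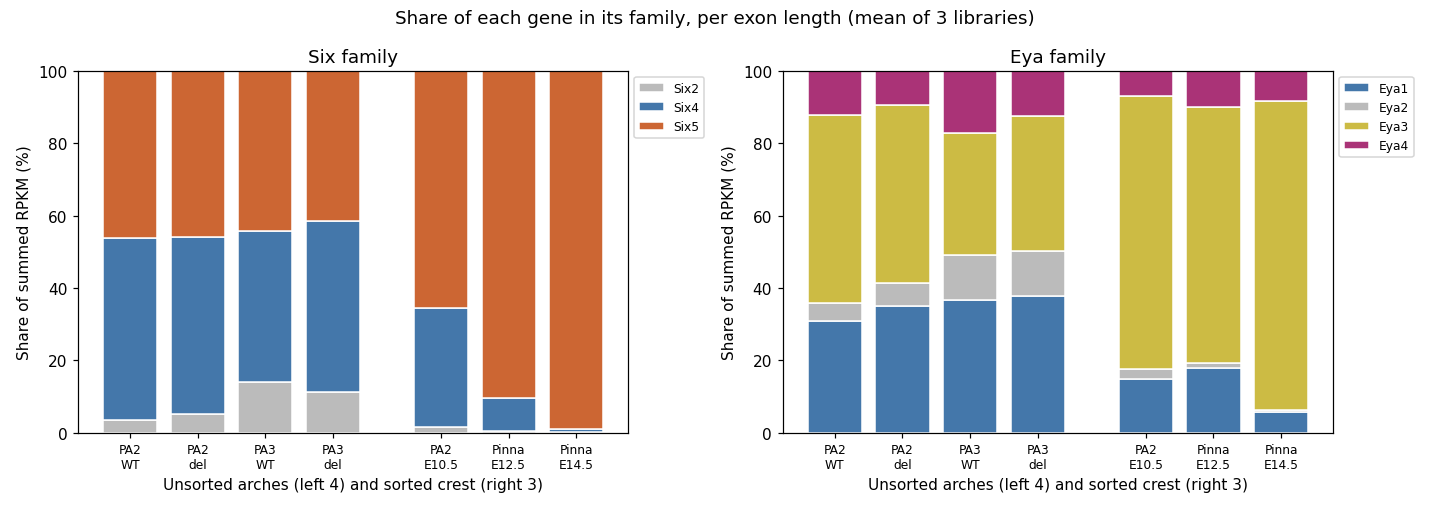
Mean share (%) of each gene in the summed RPKM of its family, with Six-family genes on the left and Eya genes on the right, over the 4 groups of unsorted arches and the 3 groups of sorted crest cells. Six5 fills 99.0% of the Six-family sum in the E14.5 pinna, and Eya2 reaches its highest share, 12.6%, in PA3 WT.

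Stage went together with tissue and with the enzyme used for dissociation, which was trypsin at E10.5 and E12.5 and papain at E14.5, and these cannot be told apart. The summed level of 4 endothelial markers was 6.52 to 8.82, 18.7 to 25.7 and 108 to 172 CPM at the 3 stages, and was mostly Kdr, at 2.97 to 3.67, 16.1 to 19.6 and 101 to 167 CPM, while Cdh5, Pecam1 and Tek were each at 3.19 CPM or less and were not called at any step. The sum of 6 neuronal markers was 34.0 to 40.0, 27.9 to 33.3 and 5.99 to 11.2 CPM, with Tubb3 and Isl1 called lower and Stmn2 called higher at E14.5 against E10.5. The sum of 3 glial markers was 10.6 to 12.6, 11.5 to 12.6 and 32.6 to 45.2 CPM, with all 3 called higher over that span. The sum of 3 chondrocyte markers was 1144 to 1213, 591 to 623 and 230 to 278 CPM, mostly of Col2a1, with Col2a1 and Sox9 called lower and Acan called higher. Their part in the changes of the members was not tested. Muscle markers, 6 in number, summed to 0.401 to 3.10 CPM in all sorted libraries.

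The second comparison set PA3 against PA2 at E10.5 in unsorted tissue. In WT embryos Six2, Eya2, Eya4 and Eya1 were higher in PA3, Six4 and Eya3 were slightly lower, and Six5 and Dach1 were not called. That made 4 higher and 2 lower of 8 members, where 36.5% of 14383 genes were called, 19.1% as higher and 17.4% as lower. In HIRE1del embryos 3 were called higher and 3 lower, with 33.4% of all genes called (18.7% higher, 14.7% lower). The CPM ranges of the arches were apart for 6 of 8 members in either genotype, against 49.9% of all genes in WT and 45% in HIRE1del. The median log2 fold change of the members was 0.40 in WT and 0.15 in HIRE1del, against 0.00 for all genes in both.

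**Figure D3:**
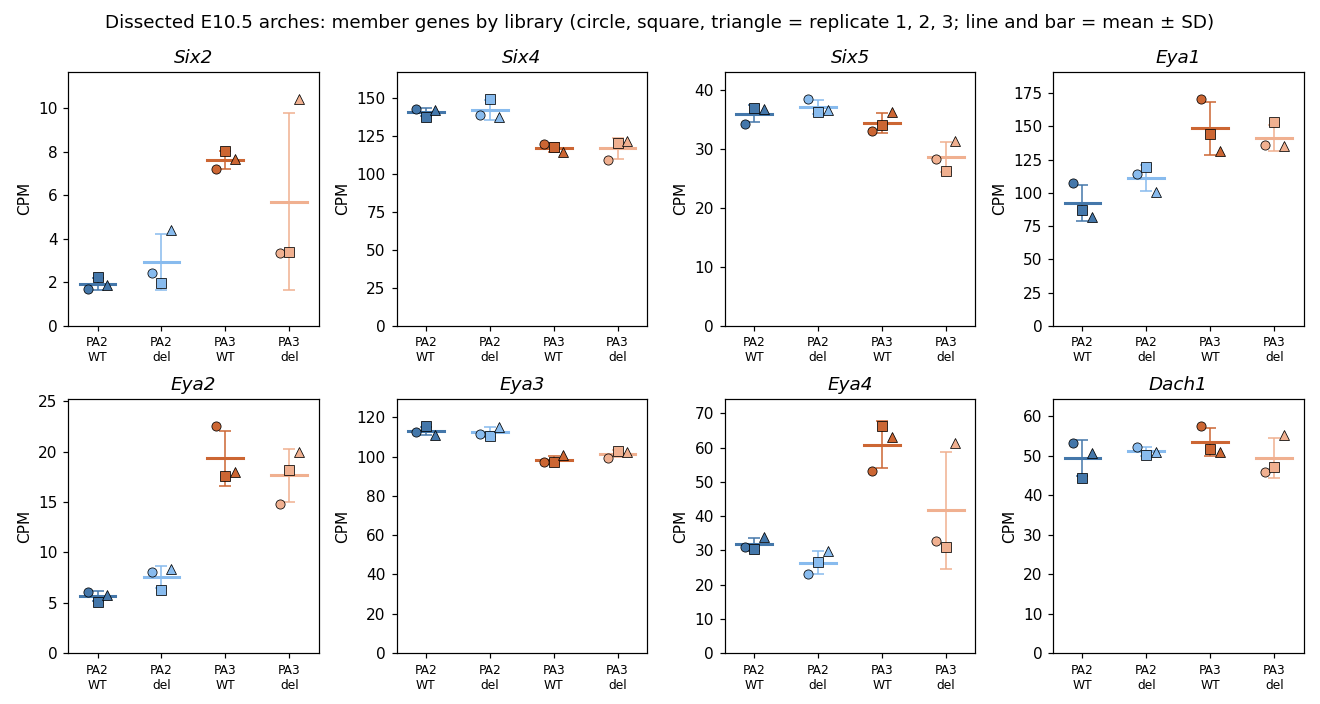
CPM of each gene in the 12 libraries of dissected E10.5 arches, with 1 panel a gene, 4 groups along the x axis, a symbol for each library and lines and bars for the mean ± SD (n = 3). Six2, Eya2, Eya4 and Eya1 are higher in PA3 WT than in PA2 WT, and HIRE1del replicate 3 (triangle) lies above the other HIRE1del libraries for Six2 and Eya4 in both arches.

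Six2 was at 1.70, 2.24 and 1.88 CPM in PA2 WT and at 7.19, 8.04 and 7.66 CPM in PA3 WT. Every PA3 library was above every PA2 library, with a fold of 3.92 (log2 1.97, SE 0.41, edgeR adjusted p 0.00225). In HIRE1del it was at 2.44, 1.99 and 4.40 CPM in PA2 and at 3.33, 3.39 and 10.4 CPM in PA3. These ranges overlapped, and the difference of 0.96 (SE 0.40) was not called (edgeR adjusted p 0.0811). Libraries of the same genotype and number deviated together in both arches and were taken to share an embryo pool. This pool was assumed from these data and not taken from the labels, and the block was added after seeing the data. With the assumed pool as a block, the difference was 0.87 and was called (edgeR adjusted p 0.00205). The call also appeared without PA2 HIRE1del replicate 3 (1.37, adjusted p 0.0323) and without PA3 HIRE1del replicate 1 or 2 (1.23 each, adjusted p 0.0386 and 0.0371), whereas without PA3 HIRE1del replicate 3 the difference was 0.19 (edgeR adjusted p 0.641). Without replicate 3 of HIRE1del in both arches, a fit added after seeing the data, it was 0.60 and called (edgeR adjusted p 0.0394). DESeq2 on all libraries also called it (0.96, adjusted p 0.0391).

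Eya2 was at 6.08, 5.12 and 5.79 CPM in PA2 WT and at 22.5, 17.6 and 18.0 CPM in PA3 WT. Its fold of 3.42 (log2 1.77, SE 0.15, edgeR adjusted p 2.11e-06) was close to that of Six2 and had the narrower error. In HIRE1del it was at 8.01, 6.31 and 8.35 CPM in PA2 and at 14.8, 18.2 and 20.0 CPM in PA3, again with no overlap (log2 1.22, SE 0.14, edgeR adjusted p 3.6e-05). Eya4 was at 31.1, 30.3 and 33.9 CPM in PA2 WT and at 53.1, 66.2 and 63.1 CPM in PA3 WT. All PA3 WT libraries were higher (log2 0.94, SE 0.20, edgeR adjusted p 0.00307). In HIRE1del Eya4 was at 23.1, 26.5 and 29.7 CPM in PA2 and at 32.7, 30.9 and 61.3 CPM in PA3. The difference was called (log2 0.66, SE 0.21, edgeR adjusted p 0.0256) and was also called with the assumed embryo pool as a block (0.61, adjusted p 0.00205). Without single libraries the call was lost, at 0.27 without PA3 HIRE1del replicate 3 (adjusted p 0.0884), 0.57 without PA2 HIRE1del replicate 1 (adjusted p 0.0912) and 0.66 without PA2 HIRE1del replicate 2 (adjusted p 0.0652). Without replicate 3 of HIRE1del in both arches Eya4 was called (0.36, edgeR adjusted p 0.0338).

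Eya1 was at 108, 87.5 and 82.2 CPM in PA2 WT and at 171, 144 and 131 CPM in PA3 WT. The groups did not overlap (log2 0.69, SE 0.11, edgeR adjusted p 0.000371). In HIRE1del it was at 114, 119 and 101 CPM in PA2 and at 136, 153 and 136 CPM in PA3, a smaller gap that was also called (log2 0.35, SE 0.11, edgeR adjusted p 0.0261). That call was lost without replicate 1 of PA2 HIRE1del (0.37, adjusted p 0.0508), without its replicate 3 (0.28, adjusted p 0.098) and without replicate 2 of PA3 HIRE1del (0.29, adjusted p 0.093). It was also lost without replicate 3 of HIRE1del in both arches (0.31, edgeR adjusted p 0.103).

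Six4 and Eya3, whose reads were plentiful, were lower in PA3 by small amounts. Six4 was at 143, 138 and 142 CPM in PA2 WT and at 120, 118 and 114 CPM in PA3 WT (log2 -0.26, SE 0.05, edgeR adjusted p 0.00167). In HIRE1del it was at 139, 149 and 137 CPM in PA2 and at 109, 121 and 121 CPM in PA3 (log2 -0.28, SE 0.05, edgeR adjusted p 0.00123). Neither pair of groups overlapped. Eya3 was at 113, 115 and 111 CPM in PA2 WT and at 97.2, 97.1 and 101 CPM in PA3 WT (log2 -0.20, SE 0.04, edgeR adjusted p 0.00212). In HIRE1del it was at 112, 111 and 115 CPM in PA2 and at 99.5, 103 and 102 CPM in PA3 (log2 -0.15, SE 0.04, edgeR adjusted p 0.0145), and that call was lost without PA3 HIRE1del replicate 1 (-0.13, adjusted p 0.0507). The call was also lost without replicate 3 of HIRE1del in both arches (-0.14, edgeR adjusted p 0.0664).

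Six5 was at 34.3, 36.9 and 36.8 CPM in PA2 WT and at 33.0, 34.0 and 36.3 CPM in PA3 WT, with overlap (log2 -0.06, 95% interval -0.22 to 0.09). In HIRE1del it was at 38.5, 36.2 and 36.6 CPM in PA2 and at 28.4, 26.2 and 31.3 CPM in PA3, with no overlap (log2 -0.37, SE 0.07, edgeR adjusted p 0.00162). Dach1 lay between 44.4 and 57.5 CPM in all 12 arch libraries, with differences between the arches of 0.11 in WT (95% interval -0.07 to 0.29) and -0.05 in HIRE1del (95% interval -0.23 to 0.13). Whether the arch difference of a gene changed with the genotype is the interaction given with the deletion.

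Per length, Eya3 made up 52.2% ± 2.42 of the Eya sum in PA2 WT and 33.6% ± 2.04 in PA3 WT (SD, n = 3 each), where Eya1 was at 36.6% ± 3.27. The summed RPKM of the 4 Eya members was 38.5 ± 1.71 in PA2 WT and 51.9 ± 2.28 in PA3 WT (SD, n = 3 each), and that of the 3 Six-family members 25.8 ± 0.452 and 25.9 ± 0.409. In PA2 WT the order of the levels by RPKM was Eya3, Six4, Six5, Eya1, Dach1, Eya4, Eya2 and Six2, at 20.0, 13, 12, 11.8, 6.76, 4.66, 1.91 and 0.917 RPKM. Six5 and Eya1 were neighbours closer than their SDs of 0.495 and 1.73.

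Markers of other cell types differed between the arches. From PA2 WT to PA3 WT the epithelial sum went from 214 to 241 CPM up to 441 to 560 CPM, the sum of neuronal markers from 67.2 to 74.9 CPM up to 157 to 214 CPM and the erythroid sum from 1311 to 2078 CPM up to 10513 to 20983 CPM, while the crest mesenchyme sum went from 952 to 1074 CPM down to 589 to 756 CPM. The sum of 6 muscle markers went from 29.2 to 30.1 CPM down to 15.3 to 25.4 CPM, with Myf5 and Msc called lower, and that of the chondrocyte markers from 784 to 899 CPM down to 648 to 739 CPM, with Sox9 and Col2a1 called lower. The endothelial sum was 219 to 229 CPM in PA2 WT and 251 to 270 CPM in PA3 WT, with 3 of 4 markers called higher, and the glial sum 7.86 to 9.61 and 13.4 to 16.0 CPM, with Sox10 called higher. All 5 epithelial, 6 neuronal and 4 erythroid markers were detected in PA2 and in PA3, and the part of these cell types in the differences of the members was not tested. In crest cells sorted from PA2 at E10.5, a separately prepared table that was not tested against this one, Eya1 was at 33.4 to 46.8 CPM, Eya2 at 2.30 to 2.88 CPM and Eya4 at 14.2 to 16.7 CPM, against 82.2 to 108, 5.12 to 6.08 and 30.3 to 33.9 CPM in unsorted PA2 WT. Six5 and Eya3 stood the other way, at 53.7 to 66.5 and 138 to 143 CPM in sorted cells against 34.3 to 36.9 and 111 to 115 CPM in unsorted PA2 WT.

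The third comparison asked how the members differed between HIRE1del and WT. None of the 8 was called in PA2, where 0.438% of all genes tested were called (0.118% higher, 0.32% lower), or in PA3, where 0.216% were (0.0556% higher, 0.16% lower). By unadjusted p under 0.05, Eya1 and Eya2 passed in PA2, as did 1233 of the 14383 genes, and Six5 and Eya4 passed in PA3, as did 1400 of 14383. DESeq2 with adjustment called 0 of 8 in either arch. The CPM ranges of HIRE1del and WT were apart for 2 of 8 members in PA2, against 13.2% of all genes, and for 1 of 8 in PA3, against 14.3%.

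**Figure D4:**
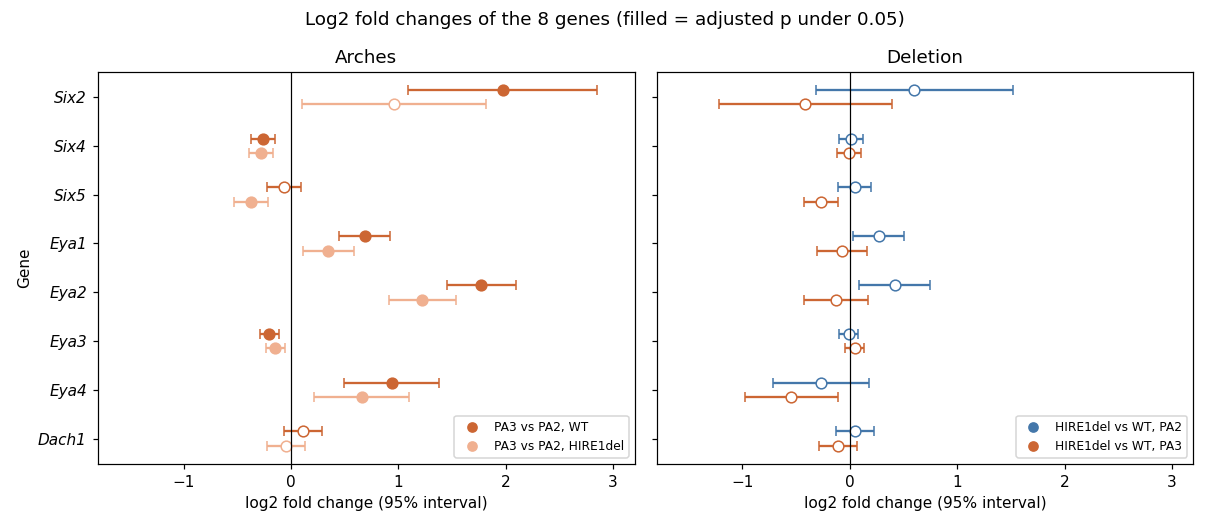
Log2 fold changes with 95% intervals for the 8 genes, for PA3 against PA2 in each genotype (left) and for HIRE1del against WT in each arch (right), with filled circles for an adjusted p under 0.05. All circles on the right are open, and the intervals of Six4 and Eya3 are the narrowest.

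The intervals of the best measured members were narrow. In PA2 the 95% interval of the log2 fold change was -0.10 to 0.12 for Six4, -0.10 to 0.08 for Eya3, -0.11 to 0.20 for Six5 and -0.13 to 0.23 for Dach1. In PA3 it was -0.12 to 0.11 for Six4, -0.04 to 0.13 for Eya3 and -0.29 to 0.07 for Dach1. Six2, with 44 to 119 counts in a PA2 library, was far less certain, at 0.60 in PA2 (95% interval -0.32 to 1.52, edgeR adjusted p 0.757).

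Eya2 was above the range of WT in every PA2 HIRE1del library, by the values given with the arches, with a log2 fold change of 0.42 (SE 0.15, edgeR adjusted p 0.437). Eya4 was below WT in every PA2 HIRE1del library (log2 -0.27, SE 0.21, edgeR adjusted p 0.784). Eya1 differed by 0.27 (SE 0.11, edgeR adjusted p 0.51), with overlap. In PA3, Six5 was below WT in every HIRE1del library (log2 -0.27, SE 0.07, edgeR adjusted p 0.259), and the log2 fold changes of Eya1 and Eya2 were -0.07 and -0.13.

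The deletion effect in PA3 depended on HIRE1del replicate 3 for Six2 and Eya4. In replicates 1 and 2 of PA3 HIRE1del, Six2 was at 3.33 and 3.39 CPM, below all PA3 WT libraries, and in replicate 3 at 10.4 CPM, above all of them. Eya4 was at 32.7 and 30.9 CPM in replicates 1 and 2 and at 61.3 CPM in replicate 3, within the WT range of 53.1 to 66.2 CPM. With all libraries the log2 fold change was -0.41 for Six2 (SE 0.37, edgeR adjusted p 0.761) and -0.55 for Eya4 (SE 0.20, adjusted p 0.418). Without PA3 HIRE1del replicate 3, Eya4 was called at -0.93 (edgeR adjusted p 0.00491) and Six2 was at -1.18 (adjusted p 0.121). Without replicate 3 of HIRE1del in both arches, an alternative added after the data were seen, both were called (Six2 -1.18, adjusted p 0.0131; Eya4 -0.93, adjusted p 0.00263). In PA2 HIRE1del, replicate 3 again had the highest Six2 and Eya4, at 4.40 and 29.7 CPM.

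Hoxa2 in PA3 HIRE1del replicate 3 was 22.1 CPM, near the 23.7 and 25.6 CPM of the other replicates. Osr1, a factor of intermediate mesoderm and arch mesenchyme, was at 3.07, 2.97 and 9.63 CPM in PA3 HIRE1del and at 3.33, 9.36 and 8.53 CPM in PA3 WT. Sox10, a marker of glia and migrating crest, was at 3.18, 3.53 and 7.61 CPM in PA3 HIRE1del and at 10.3, 8 and 7.98 CPM in PA3 WT. The crest mesenchyme sum of the PA3 HIRE1del libraries was 590, 643 and 810 CPM and that of the neuronal markers 137, 202 and 215 CPM. Osr1, Sox10 and these sums were highest in replicate 3, as were the muscle, endothelial, glial and chondrocyte sums. The erythroid sum was not. The epithelial sum was lowest in replicate 3, at 368 CPM against 483 and 479 CPM, and Hoxa2 was also lowest there. Their part in the Six2 and Eya4 levels of this library was not tested.

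Whether the deletion acted differently in the arches was tested as an interaction, the effect in PA2 minus that in PA3. It was called for 0 of 8 members (0.0487% of all genes), with 3 of 8 under an unadjusted p of 0.05, as were 794 of 14383 genes, and 0 called by DESeq2. The largest with a narrow error were Eya2 at 0.55 (SE 0.21, edgeR adjusted p 0.887), Eya1 at 0.34 (SE 0.15, adjusted p 0.887) and Six5 at 0.31 (SE 0.10, adjusted p 0.887). The interaction of Six2 was 1.01 with an interval of -0.21 to 2.24.

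The wider network was followed through 3 lists. The cofactors are 14 proteins that bind Six-family, Eya or Dach proteins or act with them as corepressors. None of the 14 was called between HIRE1del and WT, where 0.438% of all genes were called in PA2 and 0.216% in PA3. With so few calls over all genes, 0 of 14 says little about this list. The list medians were 0.04 in PA2 and -0.02 in PA3. Across the stages they moved in both directions, with 5 higher and 6 lower of 14 at E12.5 against E10.5, 0 higher and 10 lower at E14.5 against E12.5 and 4 higher and 9 lower over the whole span, with a median of -0.63. Of all genes 68.8%, 65.7% and 82% were called in these comparisons. Among the Groucho corepressors, Tle2 rose from 16.5 to 76.5 CPM between E10.5 and E14.5 (log2 2.21, edgeR adjusted p 3.84e-07). The corepressor Ctbp2 fell from 195 to 55.7 CPM (log2 -1.81, edgeR adjusted p 4.09e-10), and the growth regulator Pa2g4 from 258 to 110 CPM (log2 -1.23, adjusted p 2.09e-09). Tle1 rose to E12.5 and fell by 0.96 from there to E14.5 (edgeR adjusted p 1.87e-07). Between the arches of WT embryos 5 were higher and 5 lower in PA3 (36.5% of all genes called), led by Tle2 (0.81, edgeR adjusted p 0.0351) and Sobp, a binding partner of Six-family proteins (0.61, adjusted p 0.000193), and by Tle3 (-0.59, adjusted p 1.8e-06).

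Of 15 upstream and parallel factors, 14 were tested in the arches. In HIRE1del against WT, Hoxa2 (-3.74, edgeR adjusted p 1.56e-09) and Pax9, a factor of pharyngeal endoderm and arch mesenchyme (-1.28, adjusted p 0.00112), were lower in PA2. Hoxa2 was also lower in PA3 (-1.36, edgeR adjusted p 5.04e-05). There was no other call, where 0.438% of all genes were called in PA2 and 0.216% in PA3. The list medians were -0.22 in PA2 and -0.23 in PA3. In PA3 against PA2 of WT, 7 were higher and 2 lower (median 1.15), where 19.1% of all genes were higher and 17.4% lower, with Pax8, a factor of otic and kidney primordia, at 8.56 against 0.499 CPM (log2 4.07, edgeR adjusted p 1.26e-06). Pax1, a marker of pouch endoderm, was at 25.6 against 5.83 CPM (log2 2.14, adjusted p 2.1e-05), and the arch factor Tbx1 at 4.79 against 1.24 CPM (log2 1.95, adjusted p 0.00404). Pax8 and Foxi3, both among the 7 higher, were below 1 CPM in every PA2 library. They passed the filter through PA3 alone, which favoured their direction. Among the 11 tested in sorted cells, 2 were higher and 7 lower at E14.5 against E10.5 (median -0.81), where 42% of all genes were higher and 40% lower. The mesenchymal factor Foxc1 went from 131 to 1.04 CPM (log2 -6.97, edgeR adjusted p 2.1e-11), and Sall1, a factor of kidney and ear, from 6.64 to 0.0645 CPM. Pax3, a factor of crest and muscle progenitors, went from 0.304 to 13.9 CPM (log2 5.51, edgeR adjusted p 3.14e-08). Pax3 passed the filter without its E10.5 libraries and Sall1 without its E14.5 libraries, which favoured these directions. The step to E12.5 had 5 higher and 6 lower, and the step to E14.5 had 4 higher and 6 lower, with 68.8% and 65.7% of all genes called.

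The third list held 16 genes known to depend on Six-family or Eya genes in ear, kidney, muscle or arch. None of the 15 tested was called between HIRE1del and WT in either arch (medians -0.17 in PA2 and 0.02 in PA3). Of all genes, 0.438% were called in PA2 and 0.216% in PA3. In PA3 against PA2 of WT, 9 were higher and 3 lower (median 0.91), where 19.1% of all genes were higher and 17.4% lower. Ret, the receptor for Gdnf, was at 5.73 against 0.547 CPM (log2 3.4, edgeR adjusted p 0.00267) and Fgf3, an inducer of the otic placode, at 5.63 against 1.35 CPM (log2 2.05, adjusted p 0.00069), while Neurog1, a factor of placodal neurons, was at 2.37 CPM in PA3 and at 0 to 4 counts in a library of PA2. Ret and Neurog1, both among the 9 higher, were below 1 CPM in every PA2 library. They passed the filter through PA3 alone, which favoured their direction. In sorted cells 9 were tested, and 4 were higher and 3 lower at E12.5 against E10.5, then 7 higher and 2 lower at E14.5 against E12.5, with 68.8% and 65.7% of all genes called. Over the whole span 6 were higher and 2 lower (median 0.67), with 82% of all genes called. Gdnf, a ligand that depends on Eya1 in the kidney, rose from 0.770 CPM at E10.5 over 6.93 CPM at E12.5 to 35.6 CPM at E14.5 (log2 5.52 over the whole span, edgeR adjusted p 2.1e-10), while Eya1 fell. Any link between the changes of Gdnf and Eya1 was not tested. Fgf10 rose from 3.50 to 137 CPM (log2 5.29, edgeR adjusted p 1.46e-10).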

How the data were processed

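Counts per gene of 21 libraries were used as deposited. The authors made these counts with QuasR, by spliced alignment to GRCm38 and counting over exons of UCSC known genes in the opposite orientation, and applied no normalization. The TruSeq kit is described as unstranded, so reads of antisense genes cannot be told apart. The stage libraries were read from a single end and the genotype libraries from both ends, so the tables were analysed separately. Reads were demultiplexed with bcl2fastq 2.17 and 2.20, per the labels. Exon lengths for RPKM are those in the tables. No column was left unused (0).

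Genes reaching 1 CPM in 2 or more libraries of a table were tested (14383 and 13438), after TMM scaling, in a model with 1 mean for each group, in R 4.3.3 with edgeR 4.0.16. The two-sided quasi-likelihood test was used, adjusted over all genes and called under 0.05. Fold changes are fitted log2 values. Replicates are separate biological samples and differed by more than counting error (chi-square per degree of freedom 6.68 to 44.2). Alternatives were DESeq2 1.42.0, limma 3.58.1 (voom), DESeq2 size factors, no TMM, other filters, blocks, the 6 libraries of a comparison and leaving out each library. The embryo pool block and the fits without HIRE1del replicate 3 in both arches were added after seeing the data.

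Libraries with the same number correlated in their deviations between PA2 and PA3 of a genotype (r 0.382, 0.230 and 0.248 in WT, 0.213, 0.284 and 0.342 in HIRE1del). Different numbers reached 0.080 in WT and -0.034 in HIRE1del. Across genotypes, which share no embryos, PA2 WT replicate 1 reached 0.293 with PA3 HIRE1del replicate 2, so such values can arise without a shared pool. Libraries of the same number and genotype were taken to share an embryo pool, an assumption from these data that was not taken from the labels. The members and lists were chosen with earlier results of these data known. All members were named, and up to 3 called genes with the largest change from each list. Outside this rule, Osr1 and Sox10 were named to describe PA3 HIRE1del replicate 3, where neither was called, and Foxi3 for the filter.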

Additional observations from a re-analysis of the deposited data

How the results depend on the processing

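Of 958 values of single genes under the alternatives, 919 kept their direction and their side of the threshold, 11 gained a call, 11 lost one and 17 changed sign. The number of members called was within 1.5 times the reported one under each alternative, except for HIRE1del in PA3, where 0 became 1 without PA3 HIRE1del replicate 3 and 2 without replicate 3 of both arches. Leaving out each library gave 4 to 6 called members for PA3 against PA2 in HIRE1del, 6 to 6 in WT, 5 to 5 at E12.5 against E10.5, 7 to 7 at E14.5 against E10.5, 6 to 7 at E14.5 against E12.5, and 0 to 0 for HIRE1del in PA2 and for the interaction.

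The values that changed sign were not called in any fit, and the cause was not tested. When each library was left out in turn, the log2 fold change of HIRE1del in PA2 ran from -0.025 to 0.035 for Six4, from -0.026 to 0.0064 for Eya3 and from -0.024 to 0.10 for Dach1, that in PA3 from -0.031 to 0.043 for Six4 and from -0.16 to 0.039 for Eya1, and the interaction of Six4 from -0.022 to 0.048. Between the arches of HIRE1del, Dach1 ran from -0.14 to 0.0011, and at E12.5 against E10.5 Eya1 ran from -0.17 to 0.085. Six4 was at -0.000143 in PA2 with total counts only and at 0.0018 in PA3 with no filter, and Eya3 at 0.0015 in PA2 with no filter.

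With the replicate number as a block, Six2 between the arches of HIRE1del was called (0.89, adjusted p 0.0471), and no other member's call changed. Libraries of the same number had r of both signs between the genotypes of an arch (-0.136 to 0.236) and between the stages (-0.312 to 0.202). Replicate 3 was positive between the genotypes in PA2 (0.236) and in PA3 (0.131). Libraries of different numbers reached 0.213 in PA2 and 0.269 in PA3. No pairing of genotypes or stages was assumed in the main fits. Over all genes, the calls for HIRE1del rose from 63 to 105 in PA2, from 31 to 54 in PA3 and from 7 to 12 for the interaction under this block, to 26 for the interaction with the pool block, and to 162, 94 and 29 with DESeq2. Eya4 between the arches of HIRE1del was not called with limma-voom (0.60, adjusted p 0.0508) or in the 6 libraries alone (0.66, adjusted p 0.0673). With total counts only, 3518 genes were higher and 5612 lower at E14.5 against E12.5, against 4382 and 4442, and the median of all genes shifted to -0.13. Depth limits Six2 and Eya2 in sorted cells, where 3 counts are 0.0612 to 0.116 CPM in a library.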

Other observations

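Genes whose levels ran most like those of a member were listed over the 21 libraries, by Pearson correlation of log2(CPM + 0.5) after the mean of each gene within its table was taken away, among 12871 genes. The libraries share stage and arch as sources of variation, so these values describe likeness only. For Six4 the closest were Slc38a1 (r = 0.993), Med19 (r = 0.991) and Gins1 (r = 0.991), and for Six5 Zfp512b (r = 0.974), Adamts10 (r = 0.968) and Mfap2 (r = 0.966). Eya2 ran closest to the T-box gene Tbx2 (r = 0.968) and Eya1 to Grtp1 (r = 0.971). Eya3 was matched by the splicing factor gene Sf3a1 (r = 0.984) and Dach1 by the centriole gene Stil (r = 0.961). Eya4 had no match of that closeness, with Cux2 first at r = 0.849.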
